A study of Homo sapiens with 9 samples.

Results

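Breast cancer stem cells are cells with a high capacity to start tumors, and they are recognized by surface markers (CD44, CD24, PROM1), by aldehyde dehydrogenase activity (ALDH1A1, ALDH1A3) and by transcription and chromatin factors of self-renewal (POU5F1, NANOG, SOX2, KLF4, BMI1). These 10 genes were followed here in the human line MDA-MB-231, derived from a triple negative breast cancer, one without estrogen and progesterone receptors or amplified ERBB2. Each gene was represented by the probe that carries its symbol alone and has the highest mean signal over all arrays. Of the 10 genes, 7 have such a probe, among 18417 genes measured with 19460 probes of this kind. POU5F1, NANOG and BMI1 have none. The 3 probes for POU5F1 are shared with POU5F1B, POU5F1P3 or POU5F1P4, the 2 for NANOG with NANOGP1 and the 1 for BMI1 with COMMD3-BMI1, so no value is given for these genes.

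MDA-MB-231 cultures were treated for 24 hours with SID peptide at 2.5 μM, were given a scrambled peptide (SCR), or were left untreated (UT). SID is a decoy of the domain by which transcription factors bind the corepressor scaffold SIN3, and the scrambled peptide serves as its control. The labels give a dose for SID alone, and the study's methods describe SCR at the same dose. Total RNA of whole cultures was hybridized to Affymetrix human gene arrays, 3 arrays for each of SID, SCR and UT and 9 in all. The design text deposited with the arrays calls them independent replicates, whereas the array methods of the study speak of only a pair of biological replicates and do not say which, so the number of independent replicates behind each mean, SD and test of 3 arrays is not settled. All groups are labelled as the same cell line in culture. In RNA of a whole culture fewer marker-bearing cells and less RNA per cell cannot be told apart.

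In breast cancer, the cell fraction richest in tumor-initiating capacity is classically described as high in CD44 and low or negative in CD24. CD44 is a receptor for hyaluronan, and CD24 is a small, heavily glycosylated protein anchored to the outer membrane that is abundant in luminal epithelial cells. ALDH1A1 and ALDH1A3 oxidize retinaldehyde to retinoic acid and are sources of the enzyme activity used to sort stem-like cells. SOX2 and KLF4 are transcription factors of the pluripotency network, and PROM1 (CD133) is a pentaspan membrane protein of progenitor cells.

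The arrays fell into separate sets that do not follow the treatments. Replicates 1 and 2 of SID and of SCR, 4 arrays, stood apart from the other 5, which were replicate 3 of SID, replicate 3 of SCR and all UT arrays. Across probes the correlation between arrays was 0.963 to 0.997 within the sets and 0.908 to 0.929 between them. A supplementary file of the study heads SCR replicate 3 with a longer treatment time than the labels give, and marks replicate 3 of both peptides with a prefix of its own. Every comparison of SID with SCR is therefore given over all 9 arrays, within replicates 1 and 2, and in replicate 3. No replicate of UT lay with replicates 1 and 2 of the peptides, so in those replicates the difference from UT and the array set cannot be told apart. Of the defining markers of the line, VIM read 12.75 to 13.34 and the receptor genes read 6.76 to 7.23 (ESR1), 5.61 to 5.75 (PGR) and 9.16 to 9.64 (ERBB2), on the log2 scale of all signals below. Other markers did not read alike across the sets. Of 12 markers measured, 4 differed by more than 2-fold in mean between the 4 arrays and the other 5: KRT19 (11.67 against 7.49), EPCAM (10.40 against 6.48), CD44 (13.22 against 10.75) and CDH1 (8.88 against 6.84). Of all 19460 probes, 10.8% differed by that much in either direction. Of the 5 epithelial markers, KRT19, EPCAM and CDH1 thus had higher means in the 4 arrays, while KRT8 and KRT18 differed by -0.68 and -0.71. CDH1 was not shared alike by the 4 arrays. It read 10.13 and 11.08 in SCR replicates 1 and 2 but 7.05 and 7.26 in SID replicates 1 and 2. The other 5 arrays read 6.73 to 6.91. No detection value comes with the table, so a signal cannot be called above background.

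Among the 7 measured stem cell markers, CD24 and ALDH1A3 had lower signals under SID than under SCR in the first pair of replicates, 1 and 2, and both lay within 0.12 log2 of SCR in replicate 3. CD44, KLF4, SOX2, ALDH1A1 and PROM1 differed between SID and SCR by less than 0.2 log2 in every replicate. Over all 9 arrays, 0 of 7 markers passed the test (more than 2-fold, or 1 on the log2 scale, in either direction, the fold limit, with an adjusted p under 0.05 from limma), and 0 of 19460 probes did so (0%), with 1474 probes (7.57%) under an unadjusted p of 0.05. Within replicates 1 and 2, 2 of 7 markers passed it, both lower, beside 5.26% of all tested probes (1.95% higher and 3.31% lower), and 35.2% of probes had an unadjusted p under 0.05. In replicate 3, with 1 array a group and so no test, 0 markers differed by more than 2-fold, beside 0.293% of probes lower and 0% higher by that much. By the methods' t-test on the same arrays, neither of these 2 passed after adjustment (adjusted p = 0.236 for CD24 and 0.269 for ALDH1A3). With array weights in the 9-array fit, both markers passed (CD24 -2.60, adjusted p = 0.00225, and ALDH1A3 -1.37, adjusted p = 0.00721, limma). Such weights favor arrays that fit their group, and in SID and SCR replicates 1 and 2 outnumber replicate 3. This pass is therefore not separate from the result within replicates 1 and 2. The log2 signals of the 7 markers on each array are plotted by group.

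**Figure D1:**
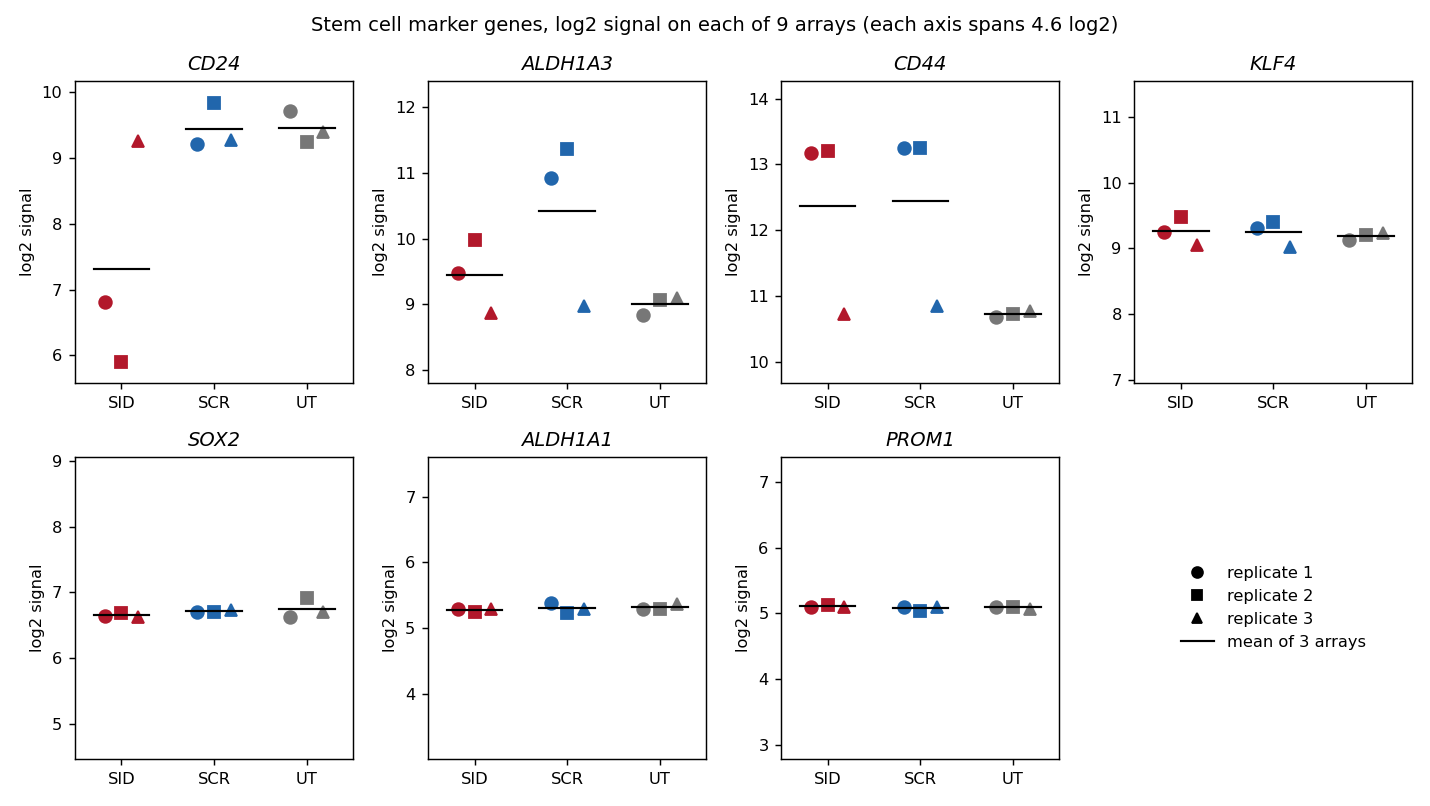
Log2 signal of the 7 measured markers (one panel per gene) on the 9 arrays, with SID left of SCR and SCR left of UT. Points are single arrays marked by replicate, bars are means of 3 arrays, and CD24 stands at 6.80 and 5.90 in SID replicates 1 and 2, below all other arrays.

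The promoter windows of CD24 and ALDH1A3, the markers that passed the test, and of CD44, the marker with the widest gap between the array sets, are shown for reference. Each runs 5′ to 3′ on the gene's strand around an annotated start (RefSeq, GRCh38.p14), in lower case, with GC boxes (GGGCGG) and CCAAT boxes (CCAAT) of either strand in capitals. The windows lie at chr6:106975578-106975877 on the minus strand for CD24 (the first of 3 annotated starts), at chr15:100879581-100879880 on the plus strand for ALDH1A3 and at chr11:35138921-35139220 on the plus strand for CD44.
CD24: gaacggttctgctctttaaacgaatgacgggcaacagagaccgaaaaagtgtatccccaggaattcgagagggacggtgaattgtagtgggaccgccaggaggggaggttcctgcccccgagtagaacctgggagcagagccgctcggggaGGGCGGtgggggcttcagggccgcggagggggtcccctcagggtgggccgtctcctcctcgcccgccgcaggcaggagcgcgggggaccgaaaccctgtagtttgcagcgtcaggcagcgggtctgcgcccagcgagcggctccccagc
ALDH1A3: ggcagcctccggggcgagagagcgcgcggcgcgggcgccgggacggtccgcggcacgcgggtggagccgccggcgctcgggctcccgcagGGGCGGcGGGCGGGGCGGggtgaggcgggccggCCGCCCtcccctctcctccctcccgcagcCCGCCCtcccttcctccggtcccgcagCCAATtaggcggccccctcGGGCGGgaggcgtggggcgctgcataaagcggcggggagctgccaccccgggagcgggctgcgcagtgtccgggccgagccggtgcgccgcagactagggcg
CD44: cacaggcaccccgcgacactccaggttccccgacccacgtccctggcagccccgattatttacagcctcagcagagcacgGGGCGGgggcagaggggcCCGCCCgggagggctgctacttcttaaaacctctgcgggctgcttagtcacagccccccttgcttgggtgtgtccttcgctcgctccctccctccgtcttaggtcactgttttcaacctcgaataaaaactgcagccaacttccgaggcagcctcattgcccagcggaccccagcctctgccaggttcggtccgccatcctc
The ALDH1A3 window was the richest in G and C of the 3 (81.7%, against 66.7% for CD24 and 63.3% for CD44, with a median of 58.7% over 35116 windows). It holds 6 GC boxes, some of which overlap each other, and 1 CCAAT box, while the CD44 window holds 2 GC boxes and the CD24 window 1. A GC box was found in 45.0% of all windows and a CCAAT box in 34.6%. The cores CTTTGA and CTTTGT, which TCF and LEF factors of the Wnt pathway can bind, and CTGTCA, the core bound by TGIF factors, were searched on both strands too. None of these cores is in the windows printed, but CTTTGT is present once in each of the CD24 windows at its other annotated starts, the second at chr6:106975416-106975715 and the third at chr6:106973990-106974289, and the third also holds 1 CCAAT box and 1 GC box. The shares of all windows that hold the cores, in the order named, are 12.9%, 16.1% and 15.8%. A match or its absence describes only the letters of these windows.

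CD24, at chr6:106969831-106976855 (GRCh38.p14), showed the lowest SID values of any marker relative to SCR. The log2 signal was 6.80, 5.90 and 9.25 in SID replicates 1, 2 and 3, against 9.21, 9.85 and 9.28 in SCR and 9.73, 9.25 and 9.40 in UT. SID replicates 1 and 2 were below every other array, whereas SID replicate 3 lay within 0.03 of its SCR control. The SID minus SCR difference was -2.41, -3.94 and -0.03 in replicates 1, 2 and 3. Within replicates 1 and 2 CD24 fell by 3.18 log2 in SID (SE 0.32, 95% confidence interval -3.92 to -2.43, adjusted p = 0.000689 from limma), a signal 9.03-fold lower and rank 21 from the lowest of 19460 probes.

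The group means of CD24 were 7.32 ± 1.73 in SID, 9.45 ± 0.35 in SCR and 9.46 ± 0.24 in UT (SD, n = 3 each). Over all 9 arrays the SID minus SCR difference of -2.13 (SE 0.75) did not pass the test (adjusted p = 0.657 from limma). Without SID replicate 3 it was -3.09 and passed (adjusted p = 0.00429). The difference between SID and SCR in replicates 1 and 2 was itself larger than that in replicate 3, by -3.15 log2 (SE 0.55, adjusted p = 0.0196, limma), a call made for 4.87% of all probes (1.72% higher and 3.15% lower, with 23.6% under an unadjusted p of 0.05). That call was lost without SCR replicate 2 (-2.83, adjusted p = 0.0581) and without UT replicate 3 (-3.15, adjusted p = 0.0505), which enters through the shared spread. Between SCR and UT, CD24 differed by -0.01 (adjusted p = 0.996). The RefSeq gene table lists 5 other entries whose symbols begin with CD24, and whether the probe also reads them was not tested.

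ALDH1A3, at chr15:100879831-100916626, was the other marker with a lower signal under SID. Its log2 signal was 9.48, 9.98 and 8.86 in SID replicates 1, 2 and 3, against 10.93, 11.36 and 8.98 in SCR and 8.84, 9.06 and 9.10 in UT. SCR replicates 1 and 2 were the highest of all arrays, SID replicates 1 and 2 came next, and both replicate 3 arrays lay among the UT values. The SID minus SCR difference was -1.45, -1.38 and -0.12. In replicates 1 and 2 ALDH1A3 fell by 1.41 log2 in SID (SE 0.20, 95% confidence interval -1.88 to -0.95, adjusted p = 0.00242), 2.66-fold lower in linear signal and rank 275 from the lowest.

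The means of ALDH1A3 were 9.44 ± 0.56 in SID, 10.42 ± 1.27 in SCR and 9.0 ± 0.14 in UT (SD, n = 3 each), and the 9-array difference between SID and SCR was -0.98 (SE 0.59, adjusted p = 0.708, limma). Without SCR replicate 3 it was -1.70 and passed (adjusted p = 0.0445). The difference between replicates 1 and 2 and replicate 3 was -1.29 (SE 0.35, adjusted p = 0.0656) and did not pass. A second probe of ALDH1A3 ran the other way, with 8.10, 8.20 and 8.09 in SID, 7.92, 8.05 and 7.98 in SCR and 8.14, 8.15 and 8.12 in UT. Its SID minus SCR difference in replicates 1 and 2 was 0.16 (SE 0.09, adjusted p = 0.235), so the lower value rests on 1 of 2 probes. With the mean of both probes the difference was -0.63 (adjusted p = 0.0123), short of the fold limit.

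Epithelial marker signals also differed among these arrays. The mean log2 signal of EPCAM, CDH1, KRT8, KRT18 and KRT19 was 10.73 and 10.79 in SID replicates 1 and 2 against 11.82 and 12.19 in SCR replicates 1 and 2, and it was 9.62 in SID replicate 3 against 9.67 in SCR replicate 3. UT read 9.54 to 9.75. Of these 5 markers, CDH1, the gene of E-cadherin, was called lower in SID within replicates 1 and 2 (-3.45, adjusted p = 0.000272, limma), and the other 4 were not called (KRT18 -0.95, EPCAM -0.92, KRT8 -0.57 and KRT19 -0.34). The mean joins opposite directions between the sets, since in the 4 arrays against the other 5 KRT19, EPCAM and CDH1 were higher by 4.18, 3.92 and 2.04 and KRT8 and KRT18 differed by -0.68 and -0.71. None of the 5 read below 6.14 on any array. Their part in the CD24 and ALDH1A3 results was not tested.

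**Figure D2:**
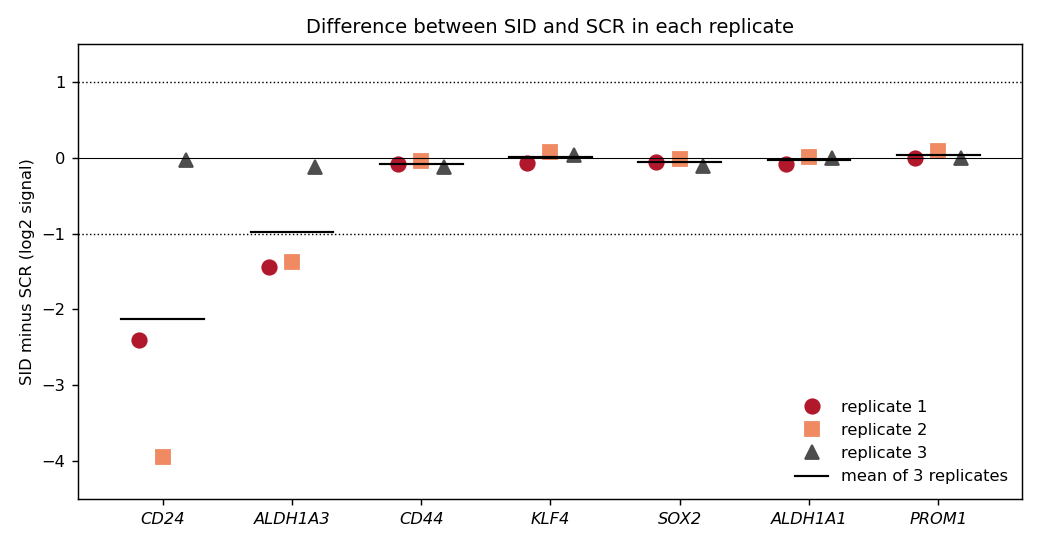
SID minus SCR difference in log2 signal for the 7 markers in each replicate (points, by color and shape), with the mean of the 3 replicates as a bar and the fold limits of -1 and 1 as dotted lines. CD24 (-2.41 and -3.94) and ALDH1A3 (-1.45 and -1.38) lie below -1 in replicates 1 and 2 and near 0 in replicate 3 (-0.03 and -0.12), and the other 5 markers lie near 0 in every replicate.

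CD44, at chr11:35139171-35232402, differed between the array sets and was level between SID and SCR. The higher set held no UT array, so there treatment with either peptide and the array set cannot be told apart. The log2 signal was 13.17, 13.21 and 10.73 in SID, against 13.25, 13.25 and 10.84 in SCR and 10.68, 10.72 and 10.77 in UT. Replicates 1 and 2 of both peptides lay between 13.17 and 13.25, and the other 5 arrays between 10.68 and 10.84, with no overlap and a gap between means of 2.47. The SID minus SCR difference was -0.08, -0.04 and -0.12 in the 3 replicates. Within replicates 1 and 2 it was -0.06 with a 95% confidence interval of -0.25 to 0.12 (adjusted p = 0.639, limma), which leaves out a change of 2-fold in either direction on these arrays.

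The SID and SCR means of CD44 each joined arrays of both sets and were 12.37 ± 1.42 and 12.45 ± 1.39. The UT arrays all lay in the same set, with a mean of 10.72 ± 0.04 (SD, n = 3 each). The 9-array differences were -0.08 for SID minus SCR (SE 0.84, adjusted p = 0.999), 1.64 for SID minus UT (adjusted p = 0.393) and 1.73 for SCR minus UT (adjusted p = 0.372), none past the test in limma. The last 2 comparisons share the UT arrays. Without SID replicate 3, SID minus UT was 2.47 and passed (adjusted p = 0.045), and SID minus SCR turned to 0.74 (adjusted p = 0.614). It also turned, to 0.32 each time, without SCR replicate 1 and without SCR replicate 2. CD44 was 1 of 2 measured markers whose mean was higher by more than 1 log2 in the 4 arrays than in the other 5, ALDH1A3 being the other (gap 1.47), beside 6.2% of all probes. CD24 was lower by 1.44 between the same sets, where 4.59% of probes were lower by more than 1 log2, and its SCR arrays of replicates 1 and 2 lay at 9.21 and 9.85, around the UT values.

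**Figure D3:**
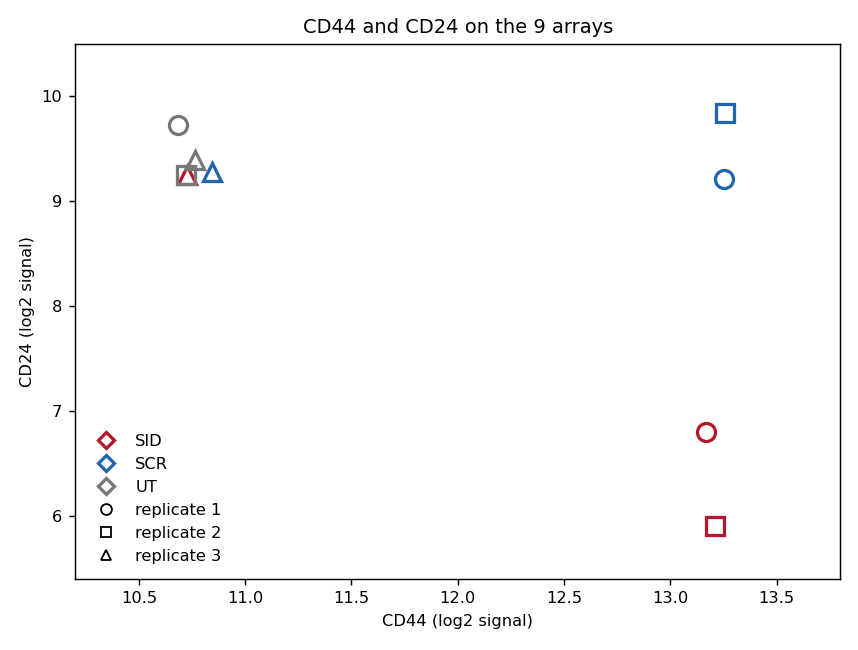
CD44 (horizontal axis) against CD24 (vertical axis), both as log2 signal, for each of the 9 arrays, with color for SID, SCR and UT and shape for the replicate. The 4 arrays of SID and SCR replicates 1 and 2 lie to the right (CD44 13.17 to 13.25), and within them the SID arrays have CD24 at 6.80 and 5.90 and the SCR arrays at 9.21 and 9.85.

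KLF4 and SOX2, the transcription factors of the list with a value, were level between SID and SCR. KLF4, at chr9:107484852-107489769, read 9.25, 9.48 and 9.05 in SID, against 9.31, 9.41 and 9.01 in SCR and 9.12, 9.21 and 9.23 in UT. The SID and SCR values overlapped, and the difference within replicates 1 and 2 was 0.0034 (95% confidence interval -0.24 to 0.25, adjusted p = 0.988). KLF4 read higher in SID and SCR replicates 1 and 2 (9.25 to 9.48) than in the other 5 arrays (9.01 to 9.23). The gap between the means of these sets was 0.24. SOX2, at chr3:181711925-181714436, read 6.64, 6.69 and 6.62 in SID, against 6.70, 6.70 and 6.73 in SCR and 6.63, 6.91 and 6.71 in UT. Each SID value was below the SCR value of its replicate, by at most 0.11, and the difference within replicates 1 and 2 was -0.04 (95% confidence interval -0.28 to 0.21, adjusted p = 0.863, limma).

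ALDH1A1 and PROM1 had the lowest signals of the list, both under 6 on every array. ALDH1A1, at chr9:72900671-72953053, read 5.29, 5.24 and 5.29 in SID, against 5.38, 5.24 and 5.29 in SCR and 5.29, 5.29 and 5.36 in UT. PROM1, at chr4:15968228-16084023, read 5.10, 5.13 and 5.10 in SID, against 5.10, 5.04 and 5.10 in SCR and 5.10, 5.10 and 5.07 in UT. The deposited value of ALDH1A1 was the same to the last digit on 5 arrays and that of PROM1 on 6, so these spreads are no measure of replicate error. Within replicates 1 and 2 their differences were -0.04 (95% confidence interval -0.24 to 0.17) and 0.05 (95% confidence interval -0.14 to 0.23), with adjusted p = 0.807 and 0.736 from limma. These intervals and p-values rest in part on the same spreads and carry the same limit.

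Against UT, 0 of 7 markers passed the test on 9 arrays in either peptide group, and 0% of all probes did so, with 2432 probes (12.5%) under an unadjusted p of 0.05 for SID and 2811 (14.4%) for SCR. CD24 differed from UT by -2.14 in SID (adjusted p = 0.388) and ALDH1A3 by 0.44 (adjusted p = 0.717). In SCR, ALDH1A3 differed from UT by 1.42 (adjusted p = 0.344). Without SID replicate 3, CD24 was -3.10 against UT and passed (adjusted p = 0.00374), and without SCR replicate 3, ALDH1A3 was 2.14 in SCR against UT and passed (adjusted p = 0.0109, limma). With array weights, CD44 passed against UT in SID (2.35, adjusted p = 0.000295) and in SCR (2.39, adjusted p = 0.000489), CD24 in SID (-2.70, adjusted p = 0.000254) and ALDH1A3 in SCR (1.86, adjusted p = 5e-04). These weighted fits favor replicates that agree within a group. In replicate 3, CD44 differed from the UT mean by only 0.0035 in SID and 0.12 in SCR.

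The genes whose signal ran most like that of each variable marker over the 9 arrays were found by Pearson's correlation, as a description in which the points share the array sets. For CD44 these were EMP1, TSPAN5 and LGALS8, each at 0.999. EMP1 read 12.71, 12.70 and 6.95 in SID, against 12.72, 12.97 and 7.35 in SCR and 7.02, 6.83 and 7.13 in UT, so it split by the same sets. For CD24 these were LASP1 (0.989), SLC16A7 (0.989) and CHRNA5 (0.988). SLC16A7, a monocarboxylate transporter gene, read 8.64, 7.75 and 9.98 in SID, against 10.21, 10.23 and 9.99 in SCR and 10.25, 9.95 and 10.05 in UT, with SID replicates 1 and 2 below all others as for CD24. For ALDH1A3 they were PRDM8 (0.987), TFCP2L1 (0.987) and ZNF665 (0.985).

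The related genes, in 6 lists, were set beside the markers, within replicates 1 and 2, where the median difference of all tested probes was 0.04 and 5.26% of them passed the test. On all 9 arrays, 0 genes of any list passed. Of 14 further stem and progenitor surface markers, 3 fell, 1 rose and 10 did not pass (median -0.01). LGR5, a receptor of R-spondins, fell by 2.35 (adjusted p = 0.000213), with 5.82, 5.59 and 5.78 in SID, against 7.79, 8.32 and 5.79 in SCR and 5.87, 5.88 and 5.86 in UT. SCR replicates 1 and 2 were thus the arrays that stood out for LGR5, and all SID arrays lay below 6, with SCR replicate 3 and UT.

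ABCG2, the drug efflux pump behind the side population of stem cells, fell by 2.09 (adjusted p = 0.000179), with 8.11, 7.80 and 10.51 in SID, against 9.93, 10.16 and 10.38 in SCR and 10.44, 10.21 and 10.38 in UT. Here it was SID replicates 1 and 2 that stood out, as for CD24. B4GALNT1, the synthase of the gangliosides GM2 and GD2, was lower in SID than in SCR by 1.47 (adjusted p = 0.00198). It read 7.925, 7.902 and 8.481 in SID, against 9.054, 9.715 and 8.348 in SCR and 8.285, 8.516 and 8.301 in UT. SCR replicates 1 and 2 were its highest arrays and SID replicates 1 and 2 its lowest. ITGB3, the integrin beta 3 chain (CD61), rose by 2.50 (adjusted p = 0.000949), with 10.22, 11.04 and 6.98 in SID, against 7.83, 8.43 and 7.11 in SCR and 7.73, 7.64 and 7.58 in UT. Its SID arrays of replicates 1 and 2 were the highest and its SID replicate 3 the lowest of all arrays.

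Of 17 other aldehyde dehydrogenases, 1 rose, 0 fell and 16 did not pass (median 0.10). ALDH6A1, a mitochondrial enzyme of valine catabolism, rose by 1.23 (adjusted p = 0.000842). ALDH2, the mitochondrial acetaldehyde dehydrogenase, and ALDH3B1 differed by 0.93 and 0.75, short of the fold limit. Of 13 genes of retinoic acid handling and response, into which the ALDH1A enzymes feed, 10 were measured and 0 passed (median -0.09). The largest difference there was -0.87 for CRABP2 (adjusted p = 0.0237), a carrier of retinoic acid to the nucleus, followed by STRA6 (-0.38) and RDH10 (-0.27).

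Of 28 genes of the pluripotency network, 26 were measured and 0 passed (median 0.03). The largest differences were -0.79 for TFCP2L1, 0.76 for MYC and -0.65 for DNMT3B. Of 26 Polycomb subunits and INK4 targets, chosen as partners of BMI1, 23 were measured, and 2 rose, 3 fell and 18 did not pass (median -0.06). JARID2 (1.39, adjusted p = 0.000112) and EZH1 (1.14, adjusted p = 0.00237), both of Polycomb repressive complex PRC2, rose, while its subunits EED (-1.21, adjusted p = 0.00432) and EZH2 (-1.11, adjusted p = 0.00336) fell. CDKN2A, the INK4 locus gene that BMI1 represses, fell by 2.26 (adjusted p = 0.000112), with 7.85, 7.58 and 11.17 in SID, against 9.91, 10.03 and 10.98 in SCR and 10.97, 11.21 and 10.96 in UT. SID replicates 1 and 2 were its lowest arrays and SCR replicates 1 and 2 the next lowest.

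Of 17 genes that act with CD44 in splicing, membrane linkage, shedding or hyaluronan turnover, 13 were measured (ESRP1, EZR, HAS1 and HYAL1 were not), and 0 rose, 2 fell and 11 did not pass (median -0.05). HMMR, a hyaluronan receptor that also acts at the mitotic spindle, fell by 2.31 (adjusted p = 0.00296), with 8.0, 6.74 and 10.61 in SID, against 9.80, 9.56 and 10.52 in SCR and 10.54, 10.30 and 10.40 in UT. NF2, the gene of merlin, which binds the tail of CD44, fell by 1.58 (adjusted p = 0.000534). ADAM10, a protease that sheds CD44, differed by 0.69 (adjusted p = 0.00536), short of the fold limit.

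**Figure D4:**
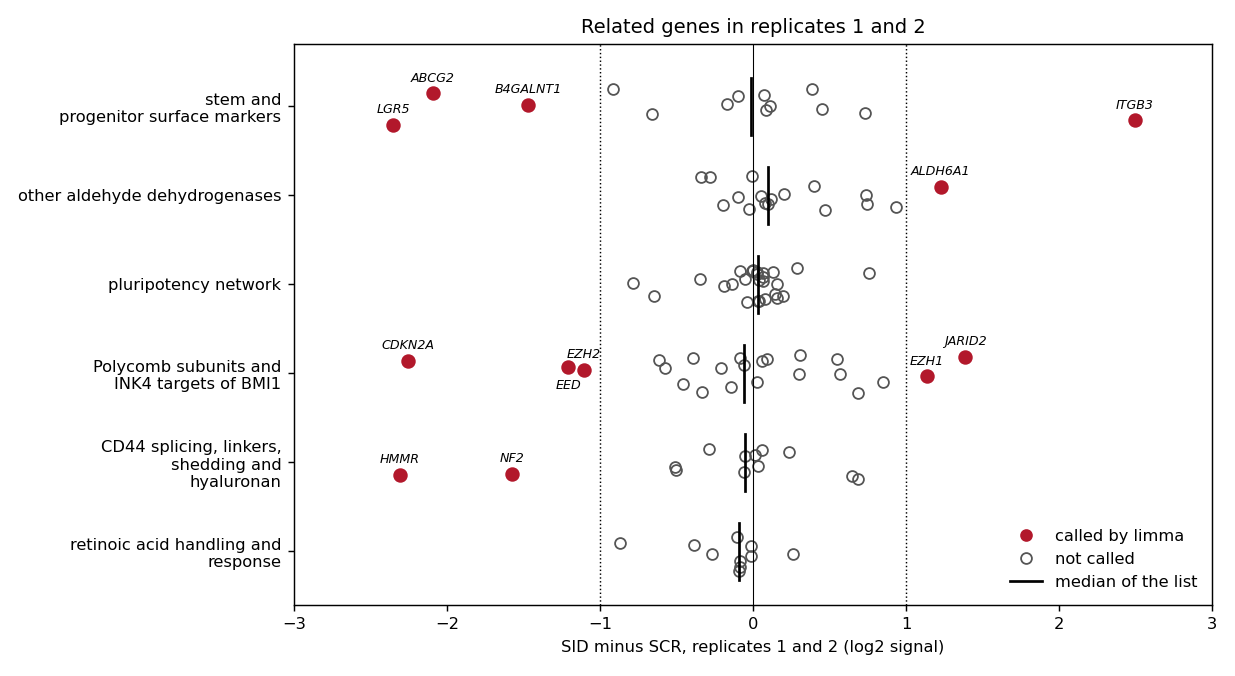
SID minus SCR difference in log2 signal within replicates 1 and 2 (limma) for every measured gene of the 6 related lists, one row per list, with named those past the test and the median of each list drawn as a bar. The 12 named genes lie outside the fold limits of -1 and 1, and the list medians lie between -0.09 and 0.10.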

How the data were processed

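RNA of MDA-MB-231 cells was measured on 9 Affymetrix human gene arrays, 3 each of SID, SCR and UT. The authors deposited log2 signal per transcript cluster, normalized between arrays (the submitters' processing notes name RMA, Expression Console and Transcriptome Analysis Console, without version or settings), and the log2 scale was read from the values, which run between 4.02 and 14.51 for the tested probes. Such normalization removes differences in overall signal between arrays. Array medians were 8.38 to 8.46. The number of arrays limits the precision. The genome build of the array annotation is not given in the sources used here, and gene positions and promoters come from RefSeq (GRCh38.p14).

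Of 33297 probes, 19460 carry 1 gene symbol, 1754 several and 12083 none. The first were tested, 19429 of them matched to RefSeq by Entrez ID. The study analysed single probes in ChipInspector, which these values do not allow. Linear models were fitted with limma 3.58.1 (lmFit, eBayes; R 4.3.3), by 3 group means on 9 arrays, and by a fit in which replicates 1 and 2 and replicate 3 of SID and SCR have means of their own. Benjamini-Hochberg adjustment covered all tested probes, and probes were called at more than 2-fold with an adjusted p under 0.05. The fits were tested on simulated data without array sets, so that test does not show how the 9-array fit performs on these arrays. The labels number the replicates of SID and SCR, so a fit with a replicate block was run. Deviations from the group means correlated between SID and SCR of the same number (0.774, 0.575 and 0.791). These values include the split into array sets, so they cannot show pairing by number. SID replicate 1 correlated at 0.976 with SCR replicate 1 and with SCR replicate 2 alike. Array weights, quantile normalization, median centring, other filters, the methods' t-test and leaving out each array were also tried. The genes named are all 10 markers, up to 3 genes of each list with the largest difference in replicates 1 and 2 and any called there, and 3 genes most like each variable marker. The markers, lists and comparison of array sets were chosen with earlier results of these data known. Figures were drawn with matplotlib 3.10.9.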

Additional observations from a re-analysis of the deposited data

Results flagged for a closer look

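CD24 was the marker whose difference between SID and SCR itself differed between replicates. Its SID minus SCR difference in replicates 1 and 2 exceeded that in replicate 3 by -3.15 log2 (adjusted p = 0.0196, limma), lower in 2 of 2 SID arrays of replicates 1 and 2, with -2.41 and -3.94 there and -0.03 in replicate 3. Leaving out single arrays gave values between -3.60 and -2.70, with adjusted p between 0.00595 and 0.0581. With 1 array of SID and 1 of SCR in replicate 3, the comparison assumes that these vary like the other arrays.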

How the results depend on the processing

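Within replicates 1 and 2, CD24 and ALDH1A3 were called lower under each alternative run with limma except the mean of both ALDH1A3 probes (-0.63). Leaving out single arrays gave 759 to 1439 probes and 2 of 2 markers each time. Leaving out a UT array could alter only the spread, and leaving out a replicate 3 array could alter neither difference nor spread. The 4 arrays alone gave 859 probes (345 higher, 514 lower) and 2 markers (adjusted p = 0.0217 for CD24 and 0.034 for ALDH1A3). The methods' t-test after adjustment gave 0 probes and 0 markers (adjusted p = 0.236 and 0.269), with 3629 probes under an unadjusted p of 0.05, against 1024 probes called by limma.

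Over 9 arrays, 0 probes were called at equal weights, and array weights, which favor arrays that fit their group, gave 761 (324 higher, 437 lower) for SID against SCR, 2389 (1242 higher, 1147 lower) for SID against UT and 2116 (1147 higher, 969 lower) for SCR against UT, with 2 markers each. These were CD24 and ALDH1A3 lower, CD44 higher and CD24 lower, and CD44 and ALDH1A3 higher, in that order. Leaving out single arrays gave 0 to 648, 0 to 1946 and 0 to 1071 probes and 0 to 1, 0 to 2 and 0 to 1 markers. For the difference between replicates 1 and 2 and replicate 3, with 948 probes and 1 marker called, all probes of the table gave 640 probes and 0 markers (CD24 adjusted p = 0.0531), array weights and leaving out dim probes gave 2 markers each (ALDH1A3 adjusted p = 0.0347 and 0.0418), and leaving out single arrays gave 550 to 1545 probes and 0 to 2 markers.

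The replicate block changed no call, over all arrays or over SID and SCR alone, where CD24 kept -2.13 (adjusted p = 0.597 and 0.526). Signs turned under other settings for values near 0. Array weights gave -0.035 for KLF4 in SID against SCR, and 0.0052 for ALDH1A1 and 0.0092 for PROM1 in SCR against UT. Quantile normalization gave 0.00063 for CD24 in SCR against UT and 0.069 for KLF4 between replicates. Centring gave 0.0045 for SOX2 in replicates 1 and 2, and 0.0051 for ALDH1A1 and 0.0098 for KLF4 between replicates. Leaving out single arrays turned signs for CD44 in SID against SCR over 9 arrays (-0.88 to 0.74), ALDH1A1 (-0.061 to 0.013) and KLF4 (-0.0995 to 0.12) there, KLF4 in SID against UT (-0.036 to 0.18), and CD24 (-0.21 to 0.12), ALDH1A1 (-0.052 to 0.021), PROM1 (-0.023 to 0.0091), SOX2 (-0.098 to 0.041) and KLF4 (-0.023 to 0.17) in SCR against UT. It also turned ALDH1A1 (-0.11 to 0.034) and KLF4 (-0.11 to 0.12) in replicates 1 and 2, and ALDH1A1 (-0.11 to 0.034) and KLF4 (-0.15 to 0.081) between replicates. For CD44 each such omission leaves SID and SCR unequal in arrays of the 2 sets. The causes of the other changes were not tested.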
